A study of Mus musculus with 19 samples.

Results

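Transcript levels of the enzymes that make, interconvert and break down polyamines were examined in the quadriceps of SBMA knock-in mice. The 10 genes listed were Smox, Odc1, Amd1, Amd2, Srm, Sms, Sat1, Paox, Oaz1 and Azin1, and every non-control probe of the array whose gene name was one of these was taken. This gave 22 probes of 9 genes out of 39429 probes, and no probe carried the name Amd1. All 22 probes were well above background on 19 of 19 arrays and entered the test across 32026 probes.

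AR113Q knock-in mice carry an expanded polyglutamine tract, the mutation type that causes spinobulbar muscular atrophy (SBMA), and control (CTR) mice were wild type. All were male C57Bl6J mice of 180 days that had been fed either normal chow (NCD) or, from 40 days of age, a high-fat diet (HFD). There were 5 arrays of CTR-NCD, 5 of AR113Q-NCD, 4 of CTR-HFD and 5 of AR113Q-HFD, each with total RNA of quadriceps, a muscle made mainly of fast fibers. The allele is a knock-in and not a transgene limited to muscle. The sources do not say that each array came from a separate mouse, so p-values measure the spread between these arrays.

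Putrescine, spermidine and spermine are small, positively charged amines that bind nucleic acids and are needed for growth and translation. Odc1 makes putrescine from ornithine, and Amd1 makes the decarboxylated S-adenosylmethionine that donates the aminopropyl groups. Srm and Sms then use these groups to build spermidine and spermine. Smox oxidises spermine back to spermidine, Sat1 acetylates spermidine and spermine, and Paox oxidises the acetylated forms. Oaz1 is the antizyme that sends the Odc1 protein for degradation, and Azin1 binds the antizyme and blocks it. In muscle, Smox, Odc1 and Amd1 are known as androgen-responsive genes.

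Levels are log2 signals after subtraction of the array's 75th percentile, so a level of 0 is the signal that 75% of probes do not exceed, and levels of different probes are not compared. The 3 probes shown here were taken to lie in coding sequence, with 2 or 3 of their 3 reading frames free of stop codons, and report the genes with the lowest ratios between genotypes. Smox probe 2 lies at chr2:131347853-131347912 on the plus strand, Odc1 probe 1 at chr12:17554799-17554858 on the plus strand and Amd2 probe 2 at chr10:40009136-40009195 on the minus strand of mm9, the build named in the file headers. No mm9 annotation was used, so exons are not assigned.
Smox probe 2: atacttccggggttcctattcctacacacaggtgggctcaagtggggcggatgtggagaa
Odc1 probe 1: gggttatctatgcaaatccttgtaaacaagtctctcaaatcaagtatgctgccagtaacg
Amd2 probe 2: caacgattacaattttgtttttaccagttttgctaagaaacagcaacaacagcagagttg

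The probes named Amd2 need care. Amd1 and Amd2 are near-identical copies, and probes 1 and 2 list transcripts of both genes, whereas probe 3 lists Amd2 alone. The genes with array probes on either side of these positions were Gtf3c6 and Cdk19. In the RefSeq order of GRCm38.p6 both are 1 gene away from Amd1, while they are 17 and 19 genes away from Amd2. The probes are called Amd2 here as in the files, and signal from the copies cannot be told apart.

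The tissue label was checked first. Ckm, Acta1 and Tnnt3, which encode creatine kinase, skeletal actin and fast troponin T, were well above background on 19 of 19 arrays. Their lowest levels on any array were 7.65, 8.84 and, at the lower of both Tnnt3 probes, 8.26.

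On the normal diet, spermine oxidase and the enzymes that start polyamine synthesis were much lower in AR113Q muscle than in CTR muscle, while Sat1 was higher. In bulk muscle, fewer cells of a type and less RNA per cell cannot be told apart. Of the 22 probes, 14 were lower and 2 were higher in AR113Q-NCD muscle than in its control at an adjusted p under 0.05 (limma, Benjamini-Hochberg over 32026 probes). Over all probes tested, 17.6% were called in this comparison, 9.28% lower and 8.29% higher. The members were chosen with earlier results of these data known. An excess over such shares may follow from that choice and is given as a description. The median log2 fold change was -0.59 over the 22 probes and -0.05 over all probes. By gene, 5 of 9 were lower and 2 were higher, beside 10% and 9.35% of all genes (19.2% in either direction). With a fold of at least 1.5 or at most 0.6 as well, 10 probes were lower and 1 was higher, beside 2.03% lower and 4.33% in either direction over all probes. At 12 probes every AR113Q-NCD array lay below every CTR-NCD array and at 1 every array lay above, beside 8.29% and 7.31% of all probes.

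**Figure D1:**
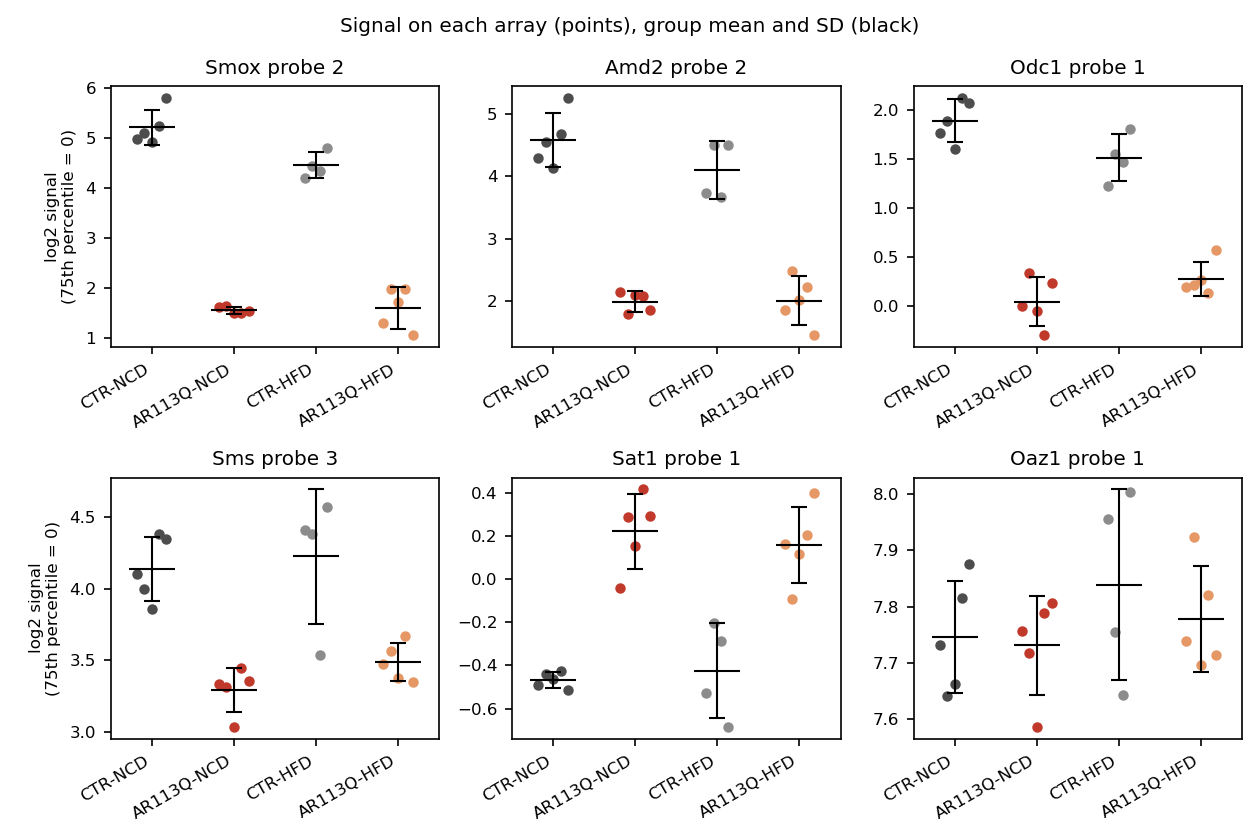
Log2 signal of 6 probes, with the array's 75th percentile at 0 on the vertical axis of each panel, in the 4 groups on the horizontal axis. Points are single arrays and black bars are the group mean and SD. For Smox, Amd2 and Odc1 all AR113Q arrays lie below all CTR arrays, for Sat1 all lie above, and for Oaz1 the groups overlap. The vertical scales differ between panels.

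Smox, the spermine oxidase, showed the lowest ratio of the members. At probe 2, the CTR-NCD levels of replicates 1 to 5 were 4.99, 5.10, 4.93, 5.26 and 5.81. The AR113Q-NCD levels were 1.63, 1.64, 1.49, 1.5 and 1.54. Every AR113Q-NCD array lay below every CTR-NCD array, and replicate 5 was the highest control. The group means were 5.22 ± 0.35 and 1.56 ± 0.07 (SD, n = 5 each), a log2 fold change of -3.66 (SE 0.19, adjusted p = 1.22e-08 by limma), which left 7.90% of the control signal. A 2-sided exact permutation test over these arrays gave p = 0.00794, the smallest value that 5 against 5 arrays allow.

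Probe 1 of Smox lies at chr2:131350842-131350901, 3′ of probe 2 on the same strand. Its mean level fell from 5.97 ± 0.38 in CTR-NCD to 2.51 ± 0.15 in AR113Q-NCD muscle (SD, n = 5 each), a log2 fold change of -3.46 (SE 0.19, adjusted p = 1.22e-08 by limma). The 2 Smox probes followed each other over the 19 arrays (Pearson r = 0.9963) and also after each group mean was subtracted (r = 0.9426). These correlations are across arrays that share the genotype difference and are given as a description.

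Amd2 was next. At probe 2, the CTR-NCD arrays read 4.29, 4.55, 4.14, 4.69 and 5.26, and the AR113Q-NCD arrays 2.14, 1.79, 2.09, 2.08 and 1.85. The groups did not overlap. The log2 fold change was -2.59 (SE 0.23, adjusted p = 2.08e-06 by limma), or 16.6% of the control signal. The other Amd2 probes gave -2.30 and -2.51.

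Odc1, the ornithine decarboxylase that commits ornithine to the pathway, fell at all 4 of its probes. At probe 1, the CTR-NCD arrays read 1.77, 1.88, 1.59, 2.12 and 2.07, and the AR113Q-NCD arrays 0.00, 0.34, -0.06, -0.30 and 0.23. No AR113Q-NCD array reached the lowest control. The log2 fold change was -1.85 (SE 0.14, adjusted p = 5.07e-07 by limma), or 27.8% of the control signal. The other probes gave -2.08, -1.76 and -1.67. Probes 3 and 4 share 55 bases and probe 2 overlaps both, so these 3 are not independent readings.

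The aminopropyl transferases had log2 fold changes nearer to 0. Spermine synthase, Sms, was lower at its 3 probes, by log2 fold changes of -0.58, -0.60 and -0.84. At Sms probe 3 the CTR-NCD arrays read 4.10, 4.0, 3.86, 4.38 and 4.34, and the AR113Q-NCD arrays 3.34, 3.31, 3.04, 3.44 and 3.36. The groups did not overlap, and the adjusted p was 0.00145 (limma). Spermidine synthase, Srm, had log2 fold changes of -0.27 (adjusted p = 0.0203) and -0.30 (adjusted p = 0.00489, both by limma), and the arrays of the 2 genotypes overlapped at both probes. At Srm probe 1 the adjusted p was 0.0557 without CTR-NCD replicate 1, 0.0612 without AR113Q-NCD replicate 3 and 0.0509 without AR113Q-NCD replicate 4.

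Sat1, which acetylates spermidine and spermine for export or breakdown, moved the other way. Its only probe read -0.49, -0.44, -0.46, -0.43 and -0.51 in CTR-NCD and -0.04, 0.29, 0.15, 0.42 and 0.29 in AR113Q-NCD muscle. All AR113Q-NCD arrays were above all CTR-NCD arrays. The log2 fold change was 0.69 (SE 0.10, adjusted p = 0.000201 by limma), or 161.1% of the control signal.

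Paox lay near the threshold. Its probes share 54 bases and both gave a log2 fold change of 0.24, with adjusted p-values of 0.0523 and 0.0454 (limma). With slide as a block both probes were called, probe 1 at an adjusted p of 0.0463 (limma). The call at probe 2 was lost with the replicate number as a block (adjusted p = 0.055), and leaving out 1 array at a time ended it in 12 of 19 cases. The controls of the pathway at the protein level were not called in the main analysis. Oaz1 had log2 fold changes of -0.01 and -0.04, which became 0.22 and 0.18 after quantile normalization. Both Oaz1 probes share 60 bases and are not independent readings on either diet. In the authors' values they were 0.28 and 0.21, and probe 1 was called higher (adjusted p = 0.0249 by limma). Azin1 had log2 fold changes of 0.04, -0.10 and 0.03, and the 95% intervals of its 3 probes together ran from -0.34 to 0.27.

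**Figure D2:**
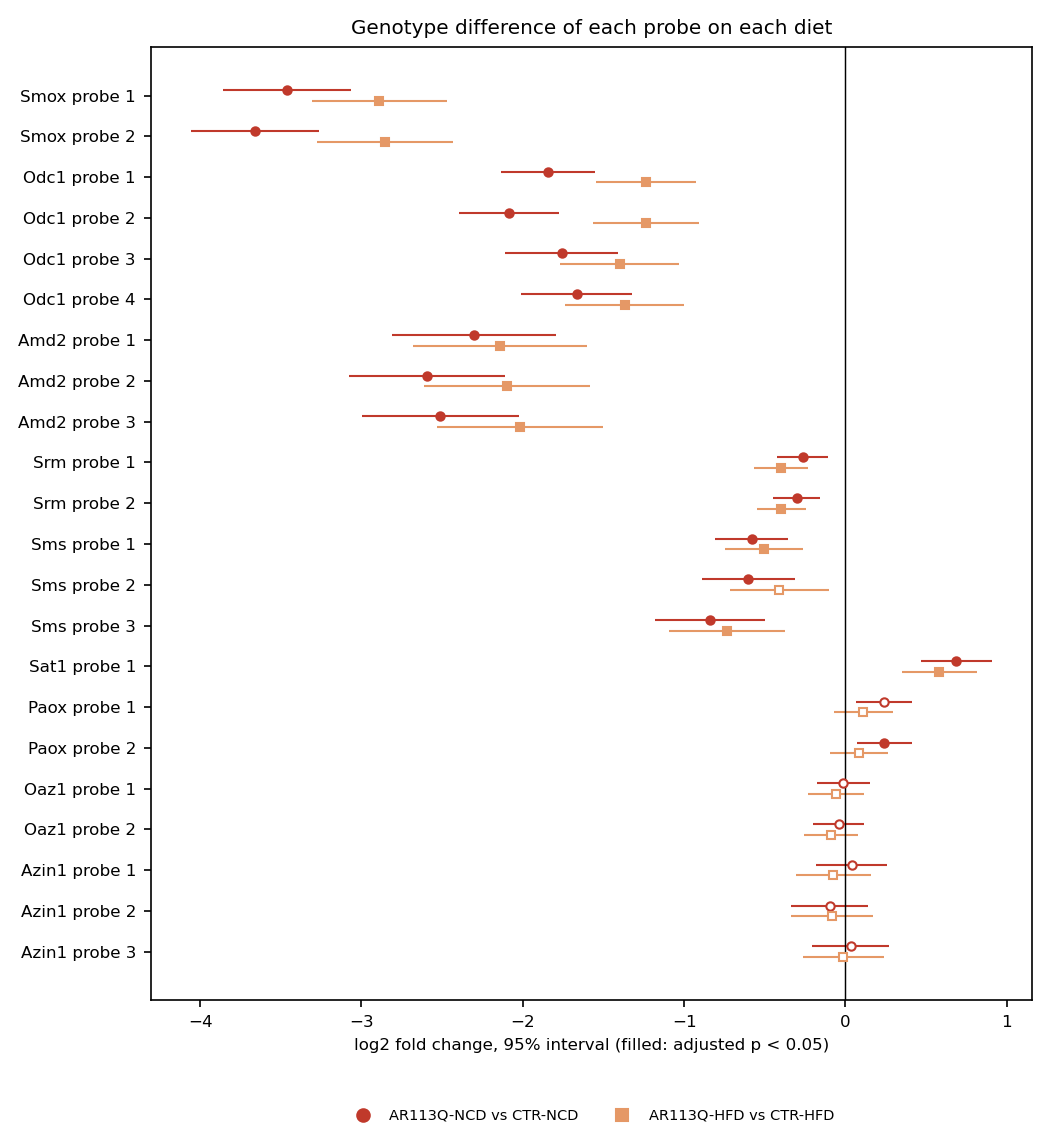
Log2 fold change of AR113Q against CTR muscle for each of the 22 probes, on the horizontal axis, with 95% intervals. Circles are mice on the normal diet and squares mice on the high-fat diet, and filled symbols have an adjusted p under 0.05. Smox probes lie farthest to the left on both diets, Sat1 lies right of 0, and the intervals of Oaz1 and Azin1 cross 0.

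The genotype comparison on the high-fat diet used the remaining arrays. Of the 22 probes, 13 were lower and 1 was higher in AR113Q-HFD than in CTR-HFD muscle, beside 9.93% lower and 8% higher over all probes (17.9% in either direction). The counts on this diet carry the same limit from the choice of members. The median log2 fold change was -0.46, against -0.07 over all probes. By gene, 5 of 9 were lower and 1 was higher, beside 10.9% and 8.97% of all genes (19.8% in either direction). With the fold thresholds, 9 probes were lower and 0 were higher, beside 1.85% lower and 4.75% in either direction over all probes. The arrays of the genotypes did not overlap at 12 probes that were lower and 1 that was higher, beside 8.3% and 7.41% of all probes. In the genotype contrast averaged over both diets, 14 probes were lower and 3 higher, beside 16% and 13.3% of all probes (29.3% in either direction).

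At Smox probe 2 the CTR-HFD arrays read 4.21, 4.45, 4.35 and 4.82, and the AR113Q-HFD arrays 1.29, 1.99, 1.71, 1.98 and 1.05. The groups did not overlap. The log2 fold change was -2.85 (SE 0.20, adjusted p = 4.79e-07 by limma), or 13.8% of the control signal, and probe 1 gave -2.89. At Amd2 probe 2 the CTR-HFD arrays read 3.73, 4.51, 3.67 and 4.51, and the AR113Q-HFD arrays 1.85, 2.48, 2.02, 2.23 and 1.45. Again no array of one genotype reached the other, with a log2 fold change of -2.10 (SE 0.24, adjusted p = 1.99e-05 by limma).

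At Odc1 probe 1 the CTR-HFD arrays read 1.22, 1.55, 1.46 and 1.81, and the AR113Q-HFD arrays 0.19, 0.21, 0.26, 0.12 and 0.57. The 4 Odc1 probes had log2 fold changes from -1.40 to -1.23. Sat1 read -0.53, -0.20, -0.29 and -0.68 in CTR-HFD and 0.16, -0.09, 0.12, 0.20 and 0.40 in AR113Q-HFD muscle, a log2 fold change of 0.58 (SE 0.11, adjusted p = 0.00133 by limma). Both Srm probes were lower by 0.40 on the log2 scale. Probes 1 and 3 of Sms were called lower, and probe 2 was at -0.41 with an adjusted p of 0.0615 (limma). CTR-HFD replicate 3 was the lowest control at all 3 Sms probes, and without it the adjusted p of Sms probe 2 was 0.00918. With slide as a block Sms probe 2 was called lower (-0.45, adjusted p = 0.00122 by limma), and the differences within slides 1, 2, 3 and 5 were -0.51, -0.59, -0.32 and -0.40. Paox, Oaz1 and Azin1 were not called. The Oaz1 values of -0.06 and -0.09 became 0.26 and 0.23 after quantile normalization, with adjusted p-values of 0.0296 and 0.043, and 0.36 and 0.28 in the authors' values, with adjusted p-values of 0.00835 and 0.0368 (limma).

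The slides of the array are a batch, and most held 1 array of each group. At Smox probe 2 the difference between AR113Q-NCD and CTR-NCD was -3.36, -3.47, -3.44, -3.76 and -4.28 within slides 1 to 5. On the high-fat diet it was -2.92, -2.46, -2.64 and -3.76 within slides 1, 2, 3 and 5, and slide 4 held no CTR-HFD array. All 9 differences had the same sign, and slide 5 gave the largest size on both diets.

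**Figure D3:**
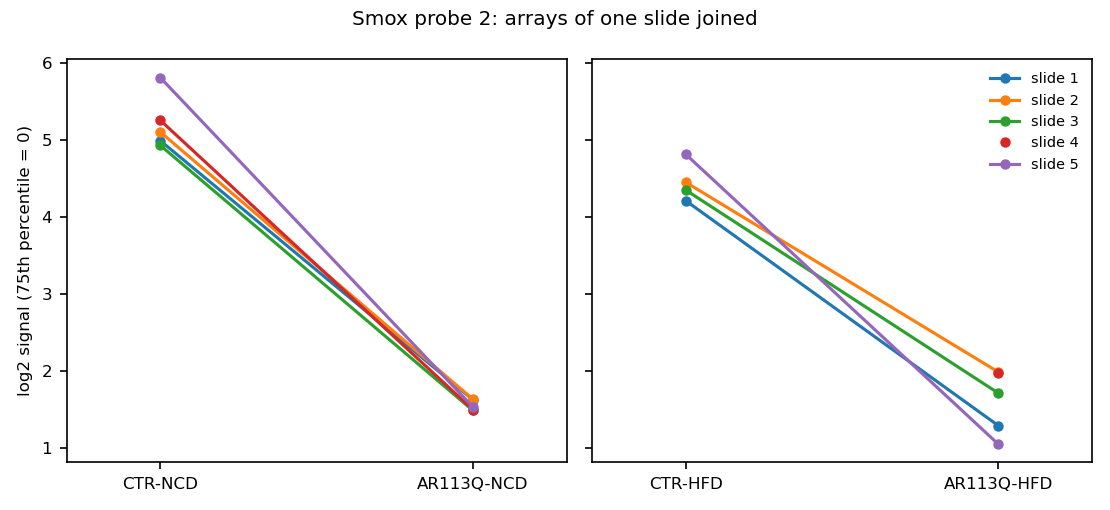
Log2 signal of Smox probe 2 (vertical axis, 75th percentile at 0) in CTR and AR113Q muscle on the normal diet (left) and the high-fat diet (right). Each point is an array and lines join arrays on the same slide. Every line runs down from CTR to AR113Q, and slide 5 has the steepest line in both panels.

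No member passed the test for diet. None of the 22 probes was called between CTR-HFD and CTR-NCD, between AR113Q-HFD and AR113Q-NCD, or in the interaction of genotype with diet, beside 0%, 0.025% and 0% of all probes (limma). Without adjustment, 4, 1 and 3 member probes had a p under 0.05, beside 8.66%, 6.73% and 4.65% of all probes. In CTR muscle the log2 difference of Smox between the high-fat and the normal diet was -0.76 at probe 2 (95% interval -1.18 to -0.34, adjusted p = 0.338) and -0.44 at probe 1 (adjusted p = 0.559, both by limma). The arrays of the CTR groups did not overlap at 1 member probe, Smox probe 2, with all high-fat arrays below, beside 1.44% of all probes. In AR113Q muscle the same differences were 0.05 and 0.14.

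The interaction, the genotype difference on the high-fat diet minus that on the normal diet, was 0.81 at Smox probe 2 (95% interval 0.23 to 1.39, adjusted p = 0.933 by limma). At Smox probe 1 it was 0.57, with an interval of -0.002 to 1.15 that crossed 0. It was 0.85 at Odc1 probe 2 (95% interval 0.40 to 1.3, adjusted p = 0.833) and 0.61 at Odc1 probe 1 (adjusted p = 0.931, both by limma). Odc1 probes 3 and 4, which overlap probe 2, gave 0.36 and 0.30, with intervals that crossed 0. At Amd2 the intervals of all 3 probes crossed 0. These values share their control arrays with the comparisons above and passed no threshold after adjustment.

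**Figure D4:**
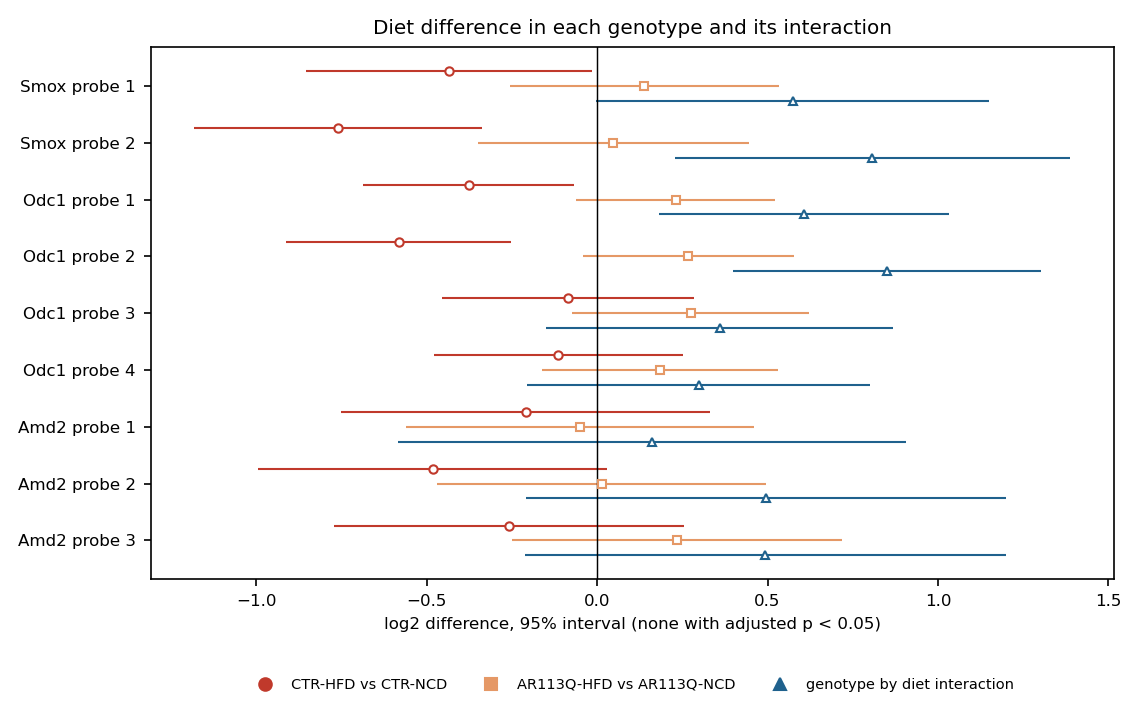
Log2 difference (horizontal axis) with 95% intervals for the 9 probes of Smox, Odc1 and Amd2. Circles are the high-fat against the normal diet in CTR muscle, squares the same in AR113Q muscle, and triangles the interaction; no symbol has an adjusted p under 0.05. In CTR muscle all 9 points lie left of 0 and in AR113Q muscle they lie between -0.05 and 0.27.

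Among arrays, Smox varied more closely with Amd2 than with Odc1. After subtraction of each group mean, the correlation of Smox probe 2 over the 19 arrays was 0.86 with Amd2 probe 2, 0.23 with Odc1 probe 1 and -0.47 with Sat1. For Smox probe 1 and Sat1 it was -0.28. The arrays share slides and scaling, and no test is attached. Outside the members, 1700001O22Rik, Itpr1, Ccdc6 and Mast4 were among the 8 named genes closest to both Smox probes over the 19 arrays. The others were Pgm2, Myl1, Ampd1 and Mylk2 for Smox probe 1, and Gm5069, Asb2, Ldha and Npc1 for Smox probe 2. For 1700001O22Rik the correlation with Smox probe 2 was 0.9859 and its own log2 fold change in AR113Q-NCD against CTR-NCD muscle was -4.23. Correlations over all arrays carry the genotype difference that these genes share with Smox and are given as a description. After subtraction of each group mean, 1700001O22Rik, Itpr1, Ccdc6 and Mast4 were not among the 8 closest to either Smox probe. Eml1 alone was among the 8 closest to both. The others were Glo1, Myo5c, Myoz3, Ube3c, Zadh2, Drap1 and Gpd1 for Smox probe 1. For Smox probe 2 they were Pebp1, Pkm, Tecr, Ldha, Pbrm1, Pgk1 and Traf6.

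Genes around the pathway were read from wider lists, also chosen with earlier results of these data known. Of 30 such genes tested, 5 were higher and 8 lower in AR113Q muscle on the normal diet, and 3 were higher and 5 lower on the high-fat diet. Over all genes 9.35% were higher and 10% lower on the normal diet, and 8.97% and 10.9% on the high-fat diet, so the higher genes on the high-fat diet were near the background. The median log2 fold change of their 41 probes was -0.07 and -0.04. In the acetylation and breakdown list, Sat2, a relative of Sat1, rose at both probes, with log2 fold changes of 0.60 and 0.38 on the normal diet and 0.81 and 0.71 on the high-fat diet. Maob and Aldh9a1, which oxidise amines and aminoaldehydes, rose on the normal diet (0.42 and 0.71) and had values of 0.22 and -0.08 on the high-fat diet. Agmat, which makes putrescine from agmatine, rose by 1.0 on the normal and 1.25 on the high-fat diet (log2). Oaz2, another antizyme, rose at both probes on the normal diet (0.42 and 0.39) and at 1 of 2 on the high-fat diet.

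Methylthioadenosine is the by-product of spermidine and spermine synthesis. It was listed together with S-adenosylmethionine metabolism, so the list is wider than methylthioadenosine salvage. Of the 8 genes tested in this joint list, 4 fell on the normal diet and 3 on the high-fat diet. None rose, and 10% and 10.9% of all genes were called lower. Adi1 fell at both probes by -0.83 and -0.82 on the normal diet and by -0.61 and -0.60 on the high-fat diet, and Enoph1 by -0.48 and -0.47. Mtap, which cleaves methylthioadenosine, fell on the normal diet (-0.46) and was at -0.19 on the high-fat diet. Ahcy was called lower at 2 of 3 probes on the normal diet alone, and Apip at both probes on the high-fat diet alone, with no test of the difference between diets beyond the interaction, in which 0 probes of the list were called. Of the transport list, Atp13a2, a lysosomal polyamine exporter, fell by -0.36 and -0.34 and Slc3a2, a transporter heavy chain, by -0.27 and -0.25. Eif5a, the translation factor that carries the spermidine-derived hypusine, fell on the normal diet (-0.34), and Adc, the gene now called Azin2, fell at 1 of 2 probes (-0.50).

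Markers of the cells in the muscle moved with genotype too. Their lists were also chosen with earlier results of these data known. The skeletal muscle fiber list was Ckm, Acta1, Mb, Tnnt3, Tnni2, Atp2a1, Myh4, Myh1, Actn3 and Pvalb. It includes fast fiber genes, so a change of fast fibers and one of all fibers cannot be told apart. Mb is also in the list, and the paper counts it among markers of oxidative fibers. Of these 10 genes, 8 were called lower and 0 higher on each diet, beside 10% of all genes lower on the normal and 10.9% on the high-fat diet. Their median log2 fold change was -0.37 on the normal and -0.49 on the high-fat diet. Their mean level ranged from 8.45 to 8.82 in CTR-NCD and from 8.20 to 8.44 in AR113Q-NCD muscle. On the high-fat diet the lowest CTR array was at 8.44 and the highest AR113Q array at 8.26. Of 10 denervation genes, 5 were higher and 1 lower on the normal diet and 6 and 1 on the high-fat diet, beside 9.35% and 8.97% of all genes higher. On the normal diet their mean level lay between -0.65 and -0.27 in CTR and between 0.12 and 0.31 in AR113Q arrays, and on the high-fat diet between -0.71 and -0.04 in CTR and between 0.09 and 0.91 in AR113Q arrays. The 7 slow fiber genes were not called on either diet, though their median log2 fold change was 2.32 on the normal and 1.13 on the high-fat diet. The paper reports Tnni1, Tnnc1 and Tnnt1, which are in this list, as upregulated in AR113Q quadriceps, so the calls here differ from the paper's. The spread between arrays was wide. The mean level of the 7 slow fiber genes ranged from 0.35 to 4.71 in CTR-NCD and from 4.54 to 5.67 in AR113Q-NCD muscle. On the high-fat diet the CTR arrays spanned -1.39 to 4.95 and the AR113Q arrays -0.01 to 4.29. Of 4 fibroblast genes 1 was higher on each diet, and of 4 endothelial genes 1 was lower on the high-fat diet, which in lists of this size is near the 19.2% and 19.8% of all genes called in either direction. No gene of the adipocyte, macrophage, red blood cell and Schwann cell lists was called between genotypes on the same diet. The part of these shifts in the levels of the polyamine genes was not tested.

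Promoter sequence was available from RefSeq (GRCm38.p6) for 8 of the 10 genes, with 10 start sites. The 250 bases before each start were searched on both strands for AGAACA, an arm of the androgen response element, for the full element, in which AGAACA and its reverse complement face each other across 3 bases, and for the E-box CACGTG, which overlaps neither. The full element was in 0 of the 10 and in 0.00913% of 32851 promoters. AGAACA was in 1 of the 10, that of Sat1, and in 16.1% of all, and CACGTG was in 1, a start of Sms, and in 6.02% of all. Also searched were CCAAT, in 3 of the 10 and in 33.8% of all, and TATAAA, in 0 of the 10 and in 12.4% of all. The promoters of the member with the lowest ratio, of the gene at the start of the pathway and of the gene that rose are shown, with the match to AGAACA on the other strand in capitals. A match is not a binding site, and no match says only that these letters are not in this window.
Smox, chr2:131491612-131491861, plus strand: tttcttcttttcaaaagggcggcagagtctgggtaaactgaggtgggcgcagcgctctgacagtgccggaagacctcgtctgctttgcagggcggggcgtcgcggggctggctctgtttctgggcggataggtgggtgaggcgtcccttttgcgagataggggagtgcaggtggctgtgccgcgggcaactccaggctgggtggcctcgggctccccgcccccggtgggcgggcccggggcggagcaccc
Odc1, chr12:17544623-17544872, plus strand: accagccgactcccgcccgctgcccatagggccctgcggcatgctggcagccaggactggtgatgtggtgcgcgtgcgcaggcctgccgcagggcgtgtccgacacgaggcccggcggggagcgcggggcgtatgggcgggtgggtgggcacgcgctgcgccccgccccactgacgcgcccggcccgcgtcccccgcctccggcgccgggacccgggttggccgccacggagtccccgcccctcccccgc
Sat1, chrX:155216450-155216699, minus strand: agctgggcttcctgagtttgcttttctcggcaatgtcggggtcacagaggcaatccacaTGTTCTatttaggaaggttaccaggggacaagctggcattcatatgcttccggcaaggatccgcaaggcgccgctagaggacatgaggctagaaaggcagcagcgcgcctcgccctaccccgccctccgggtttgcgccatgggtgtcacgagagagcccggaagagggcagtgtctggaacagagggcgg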

How the data were processed

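Total RNA of 19 quadriceps samples was labelled with Cy3 and hybridised to single-colour Agilent 4x44K arrays on 5 slides. Per the file headers and the submitters' notes, the authors made the deposited intensity values with Feature Extraction 10.7.3.1, which subtracts background and detrends within an array; no scaling between arrays is included. The authors also deposited log2 values for 25944 probes with column medians of 7.59 to 7.65; their normalization is not given in the sources used here, and limma is named. They correlated with the scanner values at 0.98 on every array and lack 9 of the 22 probes.

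Here, outlying spots were dropped, repeated spots averaged, log2 intensity taken and each array's 75th percentile subtracted. Probes well above background on at least 4 arrays were tested (limma 3.58.1, R 4.3.3, 4 groups, no block, Benjamini-Hochberg). All member probes and wider-list genes called on either diet were named. The 8 named genes most correlated with each Smox probe were named, over all arrays and after subtraction of group means. The members and lists were chosen with earlier results of these data known. A check of genotype is not reported here. The script was checked on simulated data with 200 probes changed. The share of spots well above background ran from 67.1% to 80.1% per array, and the number of arrays limits the precision.

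Replicate numbers follow slides in all groups except CTR-HFD, whose replicate 4 lay on slide 5. Deviations of same-numbered arrays correlated at 0.24 to 0.45 in all 5 pairs on the normal diet, each on 1 slide. In 4 pairs on the high-fat diet they correlated at -0.21 to 0.43. There, replicates 1, 2 and 3 shared a slide (0.43, 0.17 and -0.21) and replicate 4 did not (-0.10). Printed tests are without a block unless stated. Alternatives were other scalings, background correction, filters, blocks, weights, the authors' values and leaving out each array.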

Additional observations from a re-analysis of the deposited data

Results flagged for a closer look

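In 5 of 88 groups of arrays, 1 array stood apart from the rest by Dixon's test at the 95% level, which flags about 1 in 20 groups by chance. These were Sms probe 1 in AR113Q-HFD replicate 3 (3.14, the nearest other array at 3.41), Azin1 probe 3 in CTR-HFD replicate 1 (-0.15, nearest 0.14), Odc1 probe 4 in AR113Q-NCD replicate 2 (-2.84, nearest -3.30), Oaz1 probe 2 in AR113Q-HFD replicate 2 (7.84, nearest 7.67) and Azin1 probe 2 in AR113Q-NCD replicate 2 (-3.42, nearest -3.73).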

How the results depend on the processing

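The Smox differences kept their sign and stayed called under every setting in which they were tested, from -3.73 to -3.28 at probe 2 on the normal diet and from -2.95 to -2.72 on the high-fat diet; Amd2 and Sat1 kept theirs on both diets, and Odc1 all but probe 4 on the high-fat diet, at -0.88 with an adjusted p of 0.263 after normexp background correction. Within slide 5 Smox probes 1 and 2 differed by -4.02 and -4.28 on the normal and -3.63 and -3.76 on the high-fat diet. The 16 probes called on the normal diet became 10 with normexp, 9 of 13 in the authors' values, 12 with median centring, 11 with fold thresholds, and 14 to 17 with 1 array left out. Over all probes the share called on the normal diet also moved, from 17.6% to 2.55% with normexp, 17.4% in the authors' values, 7.46% with median centring and 4.33% with fold thresholds. The 14 on the high-fat diet became 9 with fold thresholds and 14 to 15 with 1 array left out, and the 17 for genotype averaged over diets became 11 with fold thresholds. In the authors' values 3 of 10 calls on the high-fat diet were higher, as were 3 of 16 after quantile normalization, against 1 of 14. In the authors' values 5 of 12 calls of the averaged genotype contrast were higher, against 3 of 17. Normexp moved the median of all probes to -0.55 on the normal diet, to -0.64 for diet in CTR and to 0.53 for the interaction; the members' values under it are not relative to these shifts. Both Srm probes lost their calls under normexp and median centring on both diets. On the normal diet Srm probe 1 also lost it when only the groups compared were fitted (adjusted p = 0.0762). On the normal diet Sms lost them at its 3 probes under normexp and at probe 2 under median centring. On the high-fat diet Sms probe 1 lost it under both and probe 3 when only the groups compared were fitted (adjusted p = 0.0516). Paox probe 1 on the normal diet, at an adjusted p of 0.0523, passed under 8 alternatives, and Paox probe 2 failed under 19. The cause was not tested.

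With the replicate number as a block, 15 probes were called on each diet: Paox probe 2 was lost on the normal diet, and Sms probe 2 gained on the high-fat diet (adjusted p = 0.00236). Slide as a block also gave the call at Sms probe 2 (adjusted p = 0.00122) and that at Paox probe 1 on the normal diet (adjusted p = 0.0463), and kept that at Paox probe 2. The replicate block changed no other call of a member probe in the same-diet genotype comparisons.

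Over all 8 contrasts, 195 of 5142 recomputed values changed sign, none of them called in the main analysis and 11 called in the alternative, all of Oaz1. Both Oaz1 probes share 60 bases, so their calls are not independent. For Oaz1 probes 1 and 2 on the normal diet the values were 0.22 and 0.18 after quantile normalization, 0.043 and 0.014 after median centring, 0.30 and 0.26 after normexp, and 0.28 (adjusted p = 0.0249) and 0.21 in the authors' values; on the high-fat diet they were 0.26 and 0.23 after quantile normalization and 0.36 and 0.28 in the authors' values, and probe 1 was at 0.004 after median centring. Azin1 probe 2 was at 0.046 in the authors' values on the normal diet, and probe 3 at 0.052 after median centring, 6e-04 with slide as a block and 0.026 with array weights on the high-fat diet. For diet in AR113Q muscle, Odc1 probe 4 was at -0.021 and Amd2 probe 1 at 0.043 after normexp, and Amd2 probe 1 at 0.076 in the authors' values and 0.0045 with array weights. For diet in CTR muscle, normexp gave 0.29 at Odc1 probe 3, 0.18 at Amd2 probe 1 and 0.14 at Amd2 probe 3, and for the interaction -0.14 at Amd2 probe 1. Leaving out 1 array gave ranges across 0 for Oaz1 probe 1 (-0.041 to 0.022), Azin1 probe 1 (-0.031 to 0.088) and Azin1 probe 3 (-0.066 to 0.12) on the normal diet; for Azin1 probe 2 (-0.15 to 0.0025) and probe 3 (-0.093 to 0.034) on the high-fat diet; for diet in AR113Q muscle at Smox probe 2 (-0.049 to 0.19), Amd2 probe 1 (-0.18 to 0.10) and Amd2 probe 2 (-0.11 to 0.15); for diet in CTR muscle at Odc1 probe 3 (-0.19 to 0.043) and probe 4 (-0.25 to 0.035); and for the interaction at Amd2 probe 1 (-0.017 to 0.32). The arrays per group limit what can be seen of diet: the 95% interval at Smox probe 2 in AR113Q muscle was -0.35 to 0.45.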
